A study of Mus musculus with 6 samples.

Results

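The microRNAs described here are the arms of 5 mouse hairpins, miR-192, the 2 copies of miR-194, miR-215 and miR-122, taken from a table of small RNA read counts. They were chosen by name, as every arm of these hairpins, which gave 9 of the 1915 mature names in the table, with 1 entry kept per name. The libraries come from iBN cells, a suspension line of mouse granulocyte-macrophage progenitors in which doxycycline switches on PU.1, the product of Spi1 and a master regulator of myeloid cells. Cells given doxycycline at 1000 ng/ml over 72 hours (induced, n = 3 libraries) were compared with the same cells left without doxycycline (uninduced, n = 3 libraries), and each group holds trials 1, 2 and 3. All cells of both groups carried the inducible system and grew with GM-CSF and fetal bovine serum. No doxycycline-treated cells without the inducible gene were analysed here, so an effect of the drug and one of PU.1 cannot be told apart, and the assay does not read PU.1 itself. Whether the trials were separate cultures is not stated in the labels, and the spread behind each p-value may therefore be technical. The libraries held 8697384 to 13946613 reads with 1 entry kept per name, and 10736735 to 16640610 over all entries. Of the microRNAs listed here as myeloid, miR-223-3p, miR-142a-3p and miR-142a-5p together took 73489 to 91168 counts scaled to library size (CPM) in induced libraries. In uninduced libraries they took 71001 to 89996 CPM. Most of this sum was miR-142a-5p (means of 63535 CPM in induced and 61398 CPM in uninduced cells), while miR-223-3p had 5564 and 6513 CPM. The sum alone does not establish the cell type.

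A microRNA is cut from the stem of a hairpin transcript, and its bases 2 to 8, the seed, pair with target messenger RNAs. miR-192 and miR-215 share their seed, and each lies next to a copy of miR-194 on a common primary transcript, so that the genome holds a pair of related clusters. These microRNAs are best known from liver, gut and kidney epithelium, where HNF transcription factors drive them, and from human tumour cells, where p53 induces them. miR-122 is the dominant microRNA of hepatocytes and circulates in blood plasma and serum, so its reads serve here as a check for RNA carried in from serum.

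The mature sequences of 7 of the 9 members are shown because the seeds group them and because the 3p arms tell the miR-194 copies apart. They come from the RefSeq annotation of GRCm38.p6 (mm10 is the same assembly), run 5′ to 3′, and have the seed in capitals.
mmu-miR-192-5p: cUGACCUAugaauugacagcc
mmu-miR-215-5p: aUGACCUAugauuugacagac
mmu-miR-194-5p: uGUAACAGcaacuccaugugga
mmu-miR-194-2-3p: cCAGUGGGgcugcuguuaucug
mmu-miR-194-1-3p: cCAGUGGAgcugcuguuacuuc
mmu-miR-192-3p: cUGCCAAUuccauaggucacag
mmu-miR-215-3p: uCUGUCAUucuguaggccaau
Among 1679 mature mouse names compared, the seed UGACCUA belonged to 2, miR-192-5p and miR-215-5p, and the seed GUAACAG to 1, miR-194-5p. Over 21 bases, miR-215-5p differs from miR-192-5p by C1A, A12U and C20A, counted from the 5′ end. The 3p arm of miR-194-1 differs from that of miR-194-2 by G8A, U19C, C20U and G22C over 22 bases, the first of these inside the seed.

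The miR-194-2 and miR-192 hairpins lie 115 bases apart on the plus strand at chr19:6264643-6264728 and chr19:6264844-6264932. GENCODE places both outside other genes, and the nearest gene to miR-194-2, Atg2a, which acts in autophagy, lies 2307 bases away on the same strand. The miR-194-1 and miR-215 hairpins lie 195 bases apart on the plus strand at chr1:185313319-185313385 and chr1:185313581-185313692. Both are inside the noncoding gene 2010103J01Rik, miR-194-1 in an intron and miR-215 in an exon, and antisense to an intron of Iars2, which encodes the mitochondrial isoleucyl-tRNA synthetase. The hairpins of miR-194 are shown with their mature arms in capitals, since the 5p arm is the same in both and the bases around it are not.
miR-194-2 hairpin: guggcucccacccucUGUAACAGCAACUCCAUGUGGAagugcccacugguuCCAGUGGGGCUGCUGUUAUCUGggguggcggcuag
miR-194-1 hairpin: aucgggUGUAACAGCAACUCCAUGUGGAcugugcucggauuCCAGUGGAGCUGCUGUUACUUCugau

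**Figure D1:**
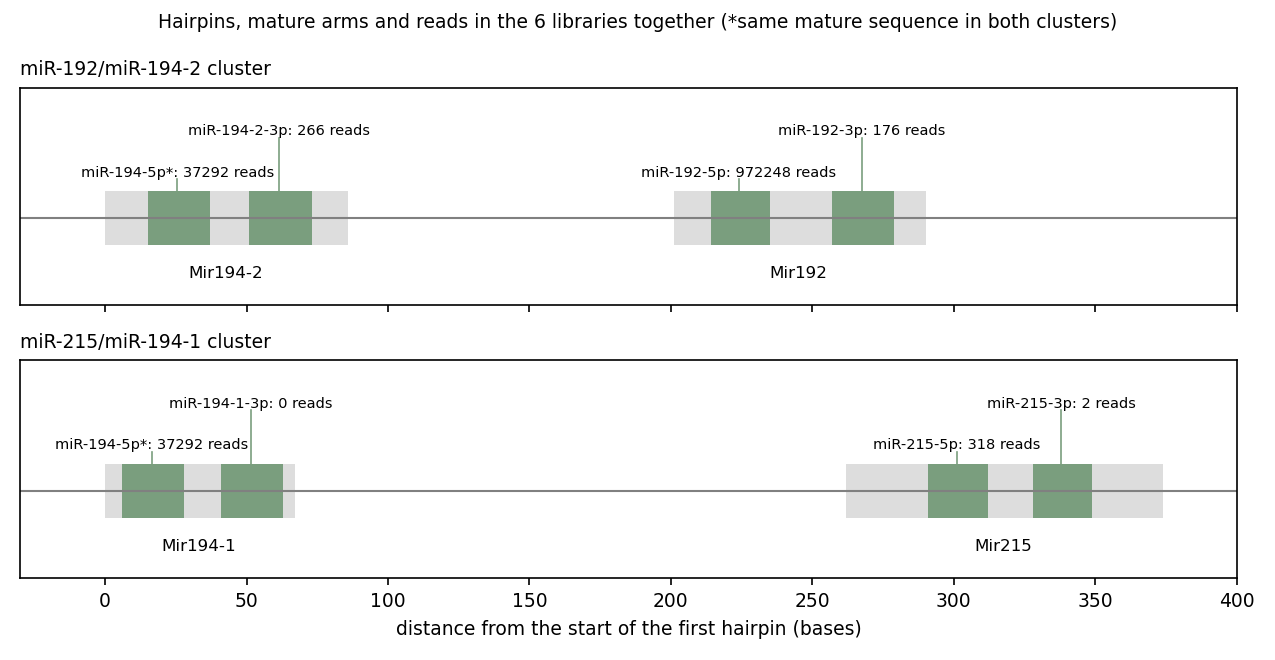
Hairpins (grey) and mature arms (green) of the 2 clusters, drawn to scale against the distance in bases from the start of the first hairpin, with the reads of each arm in the 6 libraries together. The arms of the miR-192/miR-194-2 cluster hold 972248, 37292, 266 and 176 reads, while the arms found in the miR-215/miR-194-1 cluster alone hold 318, 2 and 0, and the 37292 reads of miR-194-5p are printed for both clusters because its sequence is in both.

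The reads of these microRNAs were almost all miR-192-5p. It ranked 15th of the 1915 names by mean level, and miR-194-5p ranked 85th. Their shares were 1.52% and 0.0583% of the reads left with 1 entry kept per name. Levels are given in CPM after scaling by the trimmed mean of M-values (TMM), and since the arms are all 21 or 22 bases long no correction for length applies. Ligation to the adapters differs between small RNA sequences, so the order of different microRNAs is that of their reads. Averaged over the 6 libraries, miR-192-5p had 15333 CPM, miR-194-5p 595 CPM, miR-215-5p 4.90 CPM, miR-194-2-3p 4.25 CPM and miR-192-3p 2.87 CPM. The last 3 overlapped in their values, and their order does not hold beyond the spread between libraries. The other 4 members were at or near 0. miR-122-5p had 5 reads and miR-215-3p 2 reads in the 6 libraries together, and miR-194-1-3p and miR-122-3p had 0. A count of 0 in 1 library allowed 0.215 to 0.345 CPM, taken as 3 reads over the reads of the library. No molecular identifiers are described, so such limits and the intervals on counts include counting error alone.

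**Figure D2:**
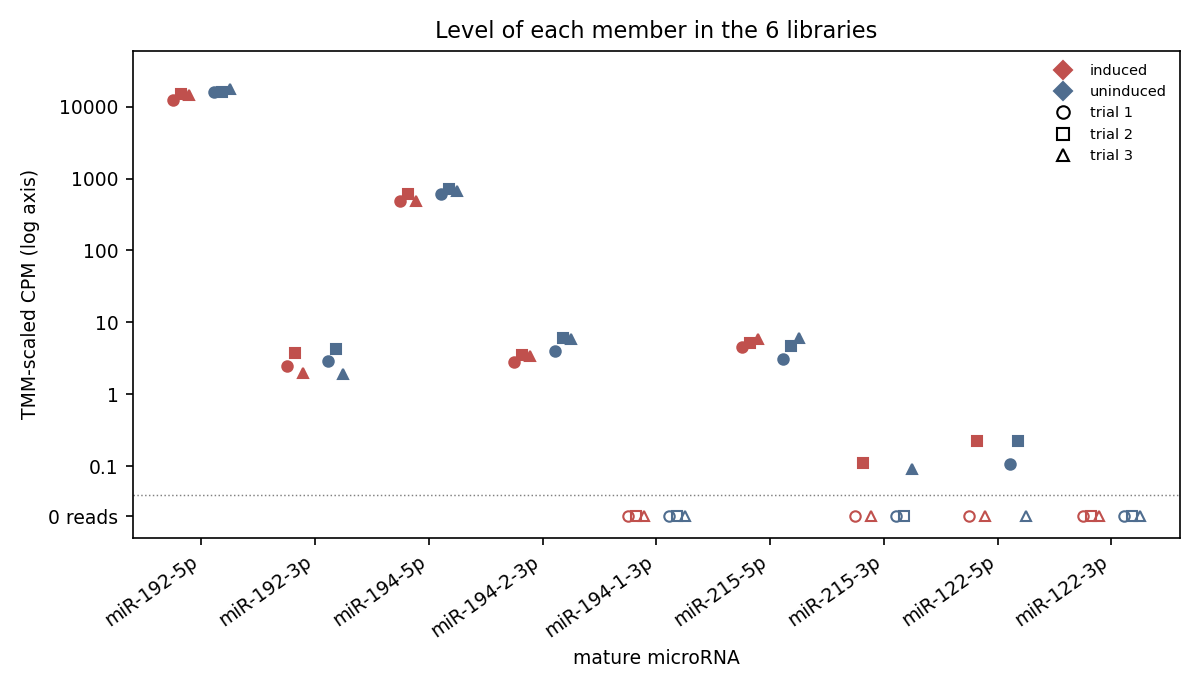
TMM-scaled CPM (log axis) of the 9 members, with 1 point per library, induced in red and uninduced in blue, the shape giving the trial, and open points below the dotted line for libraries with 0 reads. miR-192-5p lies between 12575 and 17698 CPM, miR-194-5p between 485 and 714 CPM, miR-215-5p, miR-194-2-3p and miR-192-3p between 1.92 and 6.04 CPM, and the other 4 at or below 0.224 CPM.

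miR-192-5p, miR-194-5p and miR-194-2-3p had lower values in every induced library than in any uninduced one, with log2 fold changes of -0.24, -0.34 and -0.71, but none of the members passed the test on the group alone. Of the 525 microRNAs that passed the filter on low counts, 5 were members, and 0 of these had a Benjamini-Hochberg adjusted p under 0.05 in the quasi-likelihood test of edgeR, against 6.10% of all tested. An unadjusted p under 0.05 was reached by 2 of the 5 members, miR-194-5p and miR-194-2-3p, against 20.8% of all tested. DESeq2 and limma-voom also passed 0 of the 5. With the trial as a block, 2 of the 5 passed, the same miR-194-5p and miR-194-2-3p, against 21.7% of all tested, and both were lower, as were 11.0% of all tested. The groups did not overlap for 3 of the 5, each lower in induced cells, against 11.6% of all tested that were lower without overlap. The median log2 fold change was -0.24 over the 5 members, which is the value of miR-192-5p, and 0.015 over all 525. Several of the 5 are arms found in the same cluster, so these counts and this median are not over independent microRNAs. Fewer cells holding a microRNA and less of it in each cell cannot be told apart in such bulk libraries.

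mmu-miR-192-5p, the arm that carries nearly all reads of its hairpin, had 12575, 15071 and 14603 CPM in the induced libraries of trials 1, 2 and 3 and 16093, 15958 and 17698 CPM in the uninduced ones. Every induced library was below every uninduced one, though the closest pair, induced trial 2 and uninduced trial 2, lay near each other. The means were 14083 CPM ± 1327 in induced and 16583 CPM ± 968 in uninduced cells (SD, n = 3 each). The log2 fold change was -0.24 (SE 0.11), with an edgeR adjusted p of 0.242 on the group alone and 0.053 with the block. The difference within trials was -0.36, -0.083 and -0.28 on the log2 scale, that of trial 2 being the smallest. The blocked test passed it only when trial 2 was left out, with an edgeR adjusted p of 0.016.

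mmu-miR-194-5p, the 5p arm common to both clusters, had 484.9, 605.2 and 486.5 CPM in induced cells and 607.4, 713.8 and 670.4 CPM in uninduced cells. The groups were separated by a narrow margin, between induced trial 2 and uninduced trial 1. The means were 526 CPM ± 69.0 in induced and 664 CPM ± 53.5 in uninduced cells (SD, n = 3 each), a log2 fold change of -0.34 (SE 0.14). It was lower in 3 of 3 trials, by 0.33, 0.24 and 0.46 on the log2 scale, as 29.5% of all tested microRNAs were lower in all 3. The edgeR adjusted p was 0.203 on the group alone and 0.014 with the block, a call that was lost without trial 1 (0.104) and without trial 3 (0.112).

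mmu-miR-194-2-3p, the rarer arm and the one that marks the chromosome 19 copy, had the largest change of the 5. It had 34, 31 and 46 reads in induced cells and 37, 54 and 64 reads in uninduced cells, or 2.82, 3.48 and 3.38 CPM against 3.95, 6.00 and 5.86 CPM. The lowest uninduced library, trial 1, was above the highest induced one. The means were 3.23 CPM ± 0.35 in induced and 5.27 CPM ± 1.15 in uninduced cells (SD, n = 3 each), a log2 fold change of -0.71 (SE 0.24). The edgeR adjusted p was 0.123 on the group alone and 0.027 with the block, and the blocked call was lost when any 1 trial was left out (0.078, 0.156 and 0.145 without trials 1, 2 and 3). At these counts the 95% Poisson interval of 1 library spans, for example, 21.1 to 44.0 reads in induced trial 2 and 40.6 to 70.5 reads in uninduced trial 2.

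The other 2 tested members overlapped between the groups. mmu-miR-192-3p, the passenger arm of miR-192, had 2.49, 3.70 and 1.98 CPM in induced cells and 2.88, 4.22 and 1.92 CPM in uninduced cells. Trial 2 was highest and trial 3 lowest in both groups, and the log2 fold change was -0.16 (SE 0.35, edgeR adjusted p = 0.844), with a positive value of 0.17 without uninduced replicate 2. mmu-miR-215-5p, the seed partner of miR-192-5p, had 4.48, 5.16 and 5.95 CPM in induced cells and 3.10, 4.67 and 6.04 CPM in uninduced cells. Its highest and its lowest library were both uninduced. The log2 fold change was 0.17 (SE 0.27, edgeR adjusted p = 0.766), and it was -0.059 without uninduced replicate 1.

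**Figure D3:**
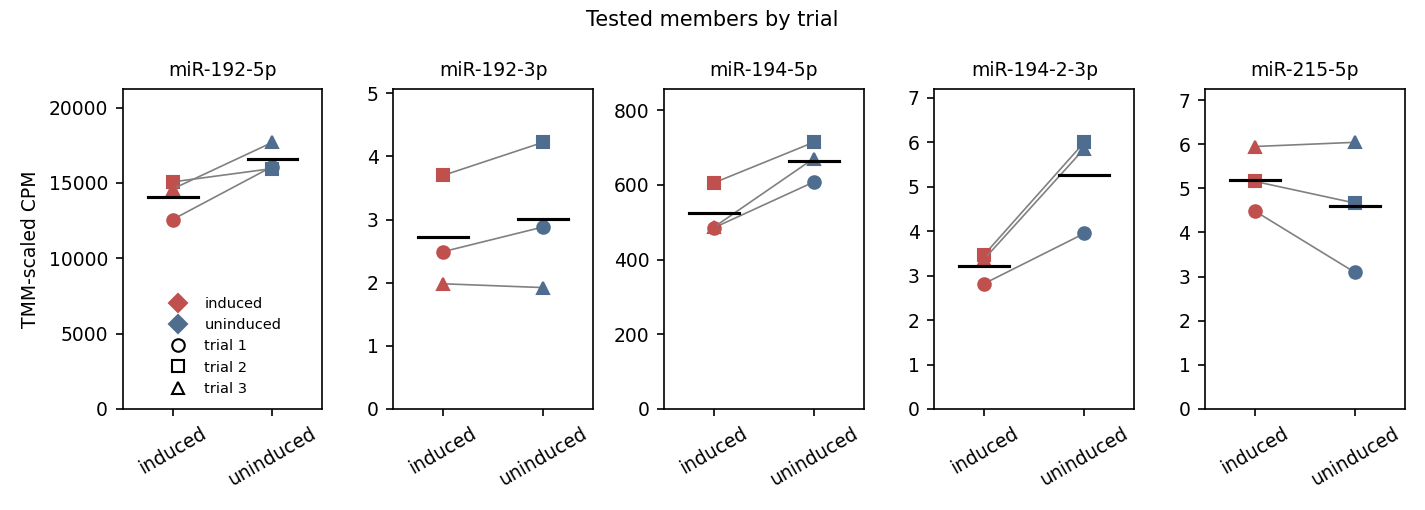
TMM-scaled CPM of the 5 tested members in each library (linear axes from 0), with lines joining the induced and the uninduced library of a trial and black bars at the group means. For miR-192-5p, miR-194-5p and miR-194-2-3p all 3 induced libraries lie below the uninduced ones, while miR-192-3p and miR-215-5p overlap between the groups.

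**Figure D4:**
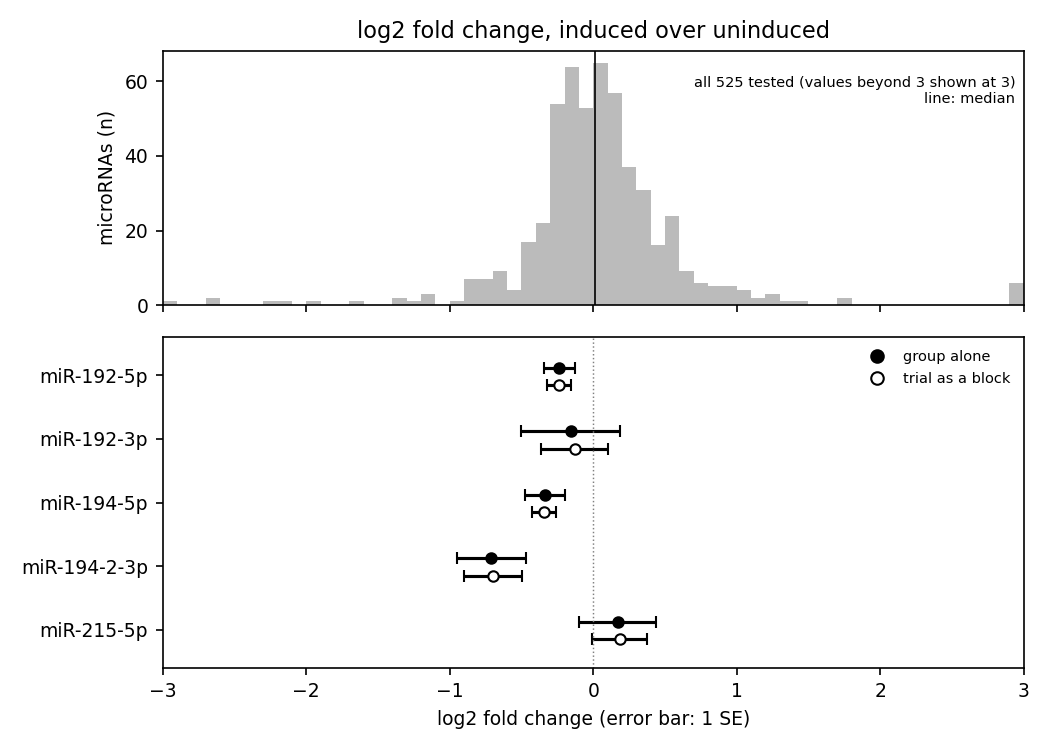
Upper panel, the number of microRNAs by log2 fold change (induced over uninduced) for all 525 tested, with a line at their median of 0.015. Lower panel, the log2 fold change of the 5 tested members with 1 SE, from the fit on the group alone (filled) and with the trial as a block (open); miR-194-2-3p is the farthest from 0 at -0.71 and -0.70.

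The clusters were next compared within each library, as a ratio of reads that needs no scaling between libraries. miR-192-5p had 2778, 2891 and 2440 reads per read of miR-215-5p in induced cells and 5110, 3378 and 2906 in uninduced cells, with 0.5 added to each count. The groups did not overlap, but the margin between induced trial 2 and uninduced trial 3 was narrow. The mean log2 ratio was 11.40 ± 0.13 in induced and 11.85 ± 0.42 in uninduced cells (SD, n = 3 each), a difference of -0.45. The two-sided exact permutation test gave p = 0.10, the smallest that 3 libraries against 3 allow. This ratio was 1 of 3 tested, and its Benjamini-Hochberg adjusted p was 0.30. It was lower in 3 of 3 trials, by 0.88, 0.22 and 0.25, and without uninduced replicate 1 the difference was -0.22.

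Stated as a share, miR-215-5p made up 0.0357%, 0.0342% and 0.0407% of the reads with the seed UGACCUA in induced cells and 0.0192%, 0.0292% and 0.0341% in uninduced cells. The exact 95% interval was 0.0268% to 0.0465% in induced trial 1 and 0.0129% to 0.0276% in uninduced trial 1. These overlapped little, while those of trials 2 and 3 overlapped widely between the groups. The number of mismatches allowed in the authors' alignment is not given in the sources used here, so whether reads of the far more abundant miR-192-5p entered the count of miR-215-5p, which differs from it at 3 of 21 bases, was not tested.

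The 3p arms gave a second comparison of the clusters. The 3p arm of miR-194-2 had 266 reads in the 6 libraries together and that of miR-194-1 had 0. Of 111 reads of these arms in induced cells, 0 were miR-194-1-3p, which allows a share of up to 2.70%, and of 155 in uninduced cells, 0 were, which allows up to 1.94%. No ratio was tested, because miR-194-1-3p had no reads in any library. Its neighbour miR-215-3p had 1 read in induced and 1 read in uninduced cells. The arms that belong to the chromosome 1 cluster alone thus summed to 320 reads, of which 318 were miR-215-5p.

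For miR-194-5p the table holds an entry beside miR-194-2-3p and another beside miR-194-1-3p, although the mature sequence is one. The entry beside miR-194-2-3p was the higher one in 6 of 6 libraries. It exceeded the other by 229, 327 and 294 reads in induced libraries and by 334, 429 and 368 reads in uninduced libraries. This was 3.92%, 6.06% and 4.44% of its reads in induced cells and 5.87%, 6.68% and 5.03% in uninduced cells, ranges that overlap. Of 39 names with several entries and at least 500 reads, 30 had a gap under 1% between the lowest and the highest entry and 7 had a larger gap than the 5.31% of miR-194-5p over all libraries. The base after the mature sequence is A in the miR-194-2 hairpin and C in the miR-194-1 hairpin. The handling of reads that match several hairpins is not given in the sources used here, so the reads shared by the entries cannot be split between the copies.

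Ratios among arms found in the miR-192/miR-194-2 cluster overlapped between the groups, with miR-194-5p counted whole although its sequence is in both clusters. miR-192-5p had 25.9, 24.9 and 30.0 reads per read of miR-194-5p in induced cells and 26.5, 22.4 and 26.4 in uninduced cells. The difference of the mean log2 ratio was 0.10 (two-sided exact permutation p = 0.60, adjusted 0.80). The 5p arm of miR-192 had 4964, 4012 and 7231 reads per read of its 3p arm in induced cells and 5481, 3729 and 8990 in uninduced cells, trial 3 being highest and trial 2 lowest in both. The difference was -0.12 on the log2 scale (two-sided exact permutation p = 0.80, adjusted 0.80). miR-194-5p had 172, 174 and 144 reads per read of miR-194-2-3p in induced cells and 154, 119 and 114 in uninduced cells, which also overlap. This last ratio was formed after its values were seen and was not tested.

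**Figure D5:**
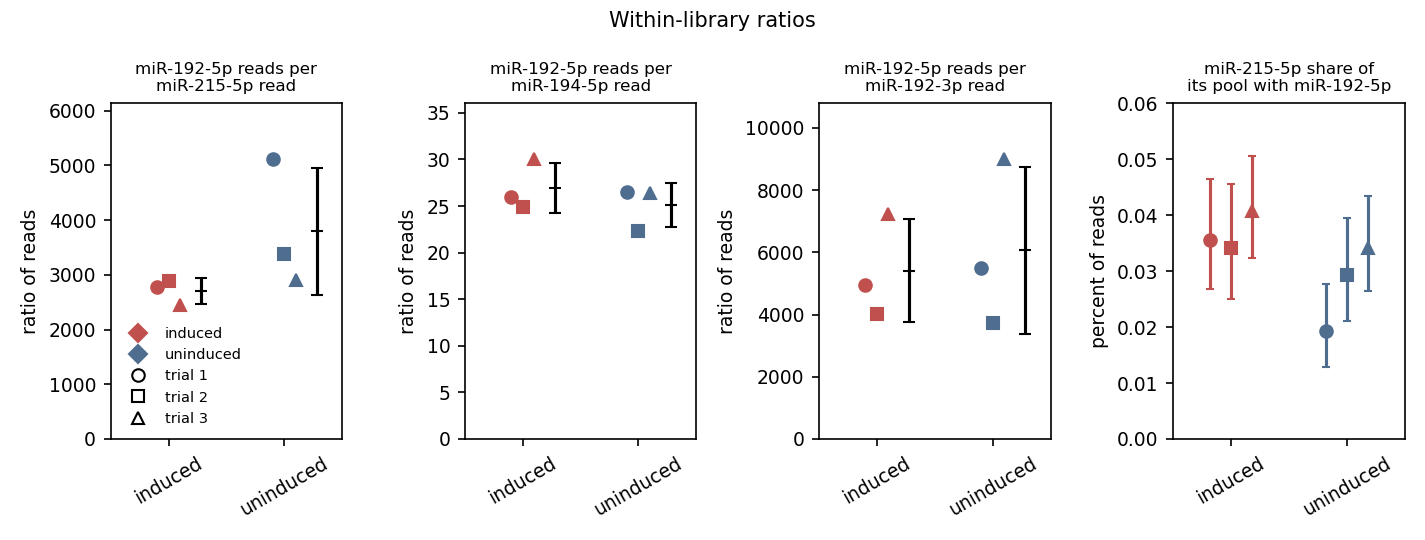
Ratios of reads within each library (linear axes from 0), with 1 point per library, the shape giving the trial, and the group mean ± SD beside the points; the last panel gives the percent of miR-215-5p among reads of miR-192-5p and miR-215-5p with exact 95% intervals. The ratio of miR-192-5p to miR-215-5p lies between 2440 and 2891 in induced and between 2906 and 5110 in uninduced libraries, and the other ratios overlap.

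miR-122, the check for RNA from serum, was at or near 0 in both groups. mmu-miR-122-5p had 0, 2 and 0 reads in induced cells and 1, 2 and 0 reads in uninduced cells. Over the summed reads of a group this is 0.0581 CPM (95% exact Poisson interval 0.00704 to 0.210) in induced and 0.101 CPM (0.0209 to 0.296) in uninduced cells, without TMM scaling. The intervals overlap widely, and no difference was detectable at this depth. miR-122-3p had 0 reads in 6 libraries, which allows up to 0.0576 CPM over all of them (upper end of the exact 95% Poisson interval). Beside these, miR-192-5p, which hepatocytes also make in quantity, had 972248 reads against 5 of miR-122-5p. The source of the miR-192-5p reads was not tested.

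Among other microRNAs known from serum, only those of muscle and red cells were listed for this check. These ranged from 0 reads to about 38.4 CPM in induced cells. Of 7 muscle and heart microRNAs that circulate, 0 passed the filter, and their summed level was 0.581 to 0.785 CPM in induced and 0.778 to 1.28 CPM in uninduced libraries, with miR-206-3p and miR-208a-3p at 0 reads. Of the 4 red cell names, miR-144-3p had 0 reads and miR-451a, the most abundant microRNA of red cells, 17 reads. The other 2, miR-486a-5p and miR-486b-5p, had nearly the same counts in each library and so stand for 1 measurement, with mean levels of 38.4 CPM in induced and 30.3 CPM in uninduced cells for miR-486a-5p (log2 fold change 0.34, SE 0.18, edgeR adjusted p = 0.326).

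Since the miR-192 and miR-194 arms are also made by gut epithelium, 9 other epithelial microRNAs were set beside them. Of 6 that passed the filter, 3 rose in induced cells on the group alone and 0 fell, against 3.43% higher and 2.67% lower of all 525 tested, and the median log2 fold change was 1.03. With the block 4 rose and 0 fell, against 10.7% higher and 11.0% lower of all tested, the added one being miR-429-3p. It had 14, 10 and 25 reads in induced and 7, 3 and 7 in uninduced libraries. For miR-200a-3p these were 15, 14 and 19 against 7, 9 and 7. Both passed the filter only through the induced libraries, where they were higher. The count tested, the median and the added call therefore lean towards rises and were not used as evidence of one. The list was also chosen with earlier results of these data known. The counts that rose, set beside the shares of all tested, are thus a description alone. Those that rose on the group alone were miR-141-3p (1.45, SE 0.17, edgeR adjusted p = 8.0e-04), miR-200c-3p (1.28, SE 0.29, edgeR adjusted p = 0.035) and miR-200b-3p (0.73, SE 0.19, edgeR adjusted p = 0.0499), which belong to the miR-200 family. With 1 library removed at a time, miR-141-3p passed in all 6 fits, miR-200c-3p in 3 and miR-200b-3p in 0, with edgeR adjusted p up to 0.189 for both without uninduced replicate 1. Their list summed to 83.4 to 103 CPM in induced and 35.7 to 43.7 CPM in uninduced libraries, well below miR-192-5p in either group. miR-375-3p, miR-203-3p and miR-205-5p, further epithelial microRNAs, were too rare to test, with 38, 23 and 7 reads in all. miR-31-5p, also on this list, had 1.90 CPM in induced and 3.89 CPM in uninduced cells (log2 fold change -0.996, SE 0.36, edgeR adjusted p = 0.147). The part of epithelial cells in the levels of the miR-192 and miR-194 arms was not tested.

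Of 14 other microRNAs reported as p53-induced, 11 passed the filter. On the group alone 0 rose and 1 fell, against 3.43% higher and 2.67% lower of all tested. With the block 0 rose and 3 fell, against 10.7% higher and 11.0% lower. With 11 tested, a count of 0 that rose is not far from these shares, while the counts that fell are above them. Neither was tested against the shares, and the list was chosen with earlier results of these data known. The median log2 fold change of the 11 was -0.069, against 0.015 over all tested. The one that fell on the group alone was miR-34c-5p, a member of the p53-induced miR-34 family, with 4.71 CPM in induced and 11.2 CPM in uninduced cells (log2 fold change -1.24, SE 0.29, edgeR adjusted p = 0.035). With 1 library removed at a time it passed in 1 of 6 fits, with an edgeR adjusted p up to 0.151 without induced replicate 2. With the block it was joined by miR-143-3p (blocked log2 fold change -0.405, SE 0.091, edgeR adjusted p = 0.0082) and miR-145a-5p (blocked log2 fold change -0.90, SE 0.29, edgeR adjusted p = 0.042), microRNAs of smooth muscle and stroma. On the group alone their edgeR adjusted p was 0.251 and 0.203. miR-34a-5p, the most abundant of that family here, had 341 CPM in induced and 382 CPM in uninduced cells (-0.16, SE 0.14, edgeR adjusted p = 0.570).

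Across the 6 libraries, the microRNAs whose log2 CPM followed that of miR-192-5p most closely, among 321 others with at least 10 CPM, were miR-181b-5p and miR-148a-3p (Pearson correlation 0.94 each), miR-5100, miR-199a-3p and miR-199b-3p (0.90 each). These are descriptions over 6 points that share library scaling, group and trial. miR-199a-3p and miR-199b-3p have nearly the same counts and stand for 1 measurement. miR-148a-3p, one of the most abundant microRNAs here, had 59043 CPM in induced and 67852 CPM in uninduced cells (log2 fold change -0.20, SE 0.13, edgeR adjusted p = 0.416). miR-194-5p, whose sequence is in the cluster of miR-192-5p and also in the other cluster, had a correlation of 0.81 with miR-192-5p and ranked 17th of 322.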

How the data were processed

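Small RNA libraries were made from total RNA of 6 samples with an Illumina TruSeq small RNA kit and sequenced as single reads, per the labels' protocols. The submitters' processing notes name Trim Galore 0.4.0, DESeq2 (as 2.1.8.0) and mm10, and alignment to miRBase is stated in the design text of the series. The counter, the miRBase release, the mismatches allowed and the handling of reads with several matches are not given there.

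The authors deposited raw read counts for 2061 entries with 1915 mature names. For the 83 names with several entries the highest was kept, so 17.5% of all deposited counts were not used. The authors also deposited CPM values, equal to the counts scaled by the sum of all entries within 0.005; they were not used further. The lowest chi-square per degree of freedom between libraries of a group was 98.7, so none was deposited under several names within a group. Pairs of libraries across the groups were not compared.

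The main test was edgeR 4.0.16 in R 4.3.3 (TMM, filterByExpr by group, robust glmQLFit, glmQLFTest, two-sided) on all 525 microRNAs kept, with Benjamini-Hochberg adjustment at 0.05 and the SE taken as the log2 fold change over the root of F. Alternatives were DESeq2 1.42.0, limma-voom (limma 3.58.1), other scaling, filters and entries, left-out libraries and the trial as a block. The fit was tested on simulated counts. The groups are numbered trial 1, 2 and 3 in the labels. Deviations from the group means correlated by 0.33, 0.45 and 0.53 between libraries of a trial, each over 0.1. The fit with the trial as a block is therefore given beside the main test, which used the group alone and left this pairing out. Ratios used counts plus 0.5, exact permutation tests and a sign-flip test within trials, computed in Python 3.11.15 with scipy 1.17.1. Named microRNAs are all members, the whole epithelial list, and the 5 most like miR-192-5p. Members of the other lists are given as counts with up to 4 examples (the most abundant, those that passed, or those too rare to test). The examples beyond the most abundant were chosen after their values were seen. The members and lists were chosen with earlier results of these data known. The sequence of miR-122 is not shown.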

Additional observations from a re-analysis of the deposited data

How the results depend on the processing

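The count of microRNAs called, 32 on the group alone, was 22 with library totals and with limma-voom and ranged from 12 to 41 when 1 library was left out, falling to 16 and 14 without induced replicates 1 and 2 and to 12 and 17 without uninduced replicates 1 and 2. It was 48 with no filter, 18 with at least 10 CPM and 114 with the replicate block (66, 60 and 12 without replicates 1, 2 and 3 of both groups). The paired fit called 2 members, miR-194-5p (-0.34) and miR-194-2-3p (-0.70), and without replicate 2 it called miR-192-5p (-0.32) and miR-194-5p (-0.40). The block changed no other call among the members. No other alternative brought a member past the test.

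With 1 library left out, the log2 fold change ranged from -0.30 to -0.15 for miR-192-5p, -0.46 to -0.27 for miR-194-5p, -0.89 to -0.60 for miR-194-2-3p, -0.43 to 0.17 for miR-192-3p and -0.059 to 0.42 for miR-215-5p. The log2 ratio difference ranged from -0.62 to -0.22 for miR-192-5p to miR-215-5p, 0.022 to 0.16 for miR-192-5p to miR-194-5p and -0.42 to 0.21 for the arms of miR-192. The cause of these shifts was not tested. These ratio tests cannot reach 0.05 at this size, nor can the sign-flip test within trials (smallest p 0.25). No ratio of miR-194-2-3p to miR-194-1-3p could be formed. Depth limits the members under 10 CPM.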
